A study of Mus musculus with 8 samples.

Results

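The clustered histone genes are the histone genes that lie side by side in arrays and carry symbols of the form Hist1h1c, in which the first digit names the array and the part after the h names the histone type. They were taken as every gene of the deposited table whose symbol begins with Hist, a digit and h, which gave 19 of the 22200 genes. Of these, 15 were from array 1 on chromosome 13 and 4 from array 2 on chromosome 3. By type, array 1 contributed 3 linker histone H1 genes, 2 H2A, 6 H2B, 2 H3 and 2 H4 genes, and array 2 contributed 1 H2A, 2 H2B and 1 H3 gene. The mouse annotation of the assembly mm9 (GENCODE vM1) names 70 such genes, and the others were not analysed here.

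Expression was measured in 8 libraries of immortalised mouse embryonic fibroblasts on the C57BL/6 background with the genotype label TAF4-/-. Untreated cells at 12 h gave 3 libraries, a 12 h treatment with all-trans retinoic acid (RA) gave 3 and a 72 h treatment gave 2, and all 8 carry the same genotype. The times are those of the labels and of the study's results text, while its methods give another time for the later treatment. Values are the normalised reads per gene that the authors deposited. No untreated library at 72 h was analysed, so the effects of RA and of time in culture cannot be told apart at 72 h.

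All cells descend from 1 line, obtained by Cre deletion of a floxed Taf4 allele in Taf4 lox/- fibroblasts, so the libraries sample cultures of 1 line and not separate animals. The sample titles carry cl1, which resembles the study's name for the TAF4-expressing parental line. Taf4a was read at 984 to 1449 normalised reads in all 8 libraries, and a value for the whole gene does not show whether the deleted part was present. Of 12 fibroblast markers 9 were tested, and the list summed to between 234058 and 274619 normalised reads in every library. Most of this sum came from Vim (mean 98802), Col1a1 (53753) and Fn1 (40138). The 3 fibroblast markers not tested were near the lowest value of the scale, with means of 5.70 for Dcn, 1.86 for Thy1 and 1.48 for Lum, and several markers of other cell types had higher means. The 13 markers of other cell types found in the table summed to between 115 and 173, with 6 of them at a mean of 10 or more. Among the fibroblast markers the collagen chain Col3a1 fell by 1.43 on the log2 scale at 72 h against untreated cells, and the PDGF receptor Pdgfra rose by 1.49 at 12 h (adjusted p = 8.25e-06 and 2.67e-06).

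Core histones H2A, H2B, H3 and H4 form the nucleosome around which DNA is wound, and linker histone H1 binds where the DNA enters and leaves it. Most clustered histone genes are expressed in S phase, when new DNA has to be packaged, and their mRNAs usually end in a conserved stem-loop that is bound by SLBP and carry no poly(A) tail. Some of these genes can also give longer, polyadenylated transcripts, which are known mainly from cells that have left the cell cycle or are differentiating. Histones that are made outside S phase come from genes elsewhere in the genome, such as H3f3b, and most give ordinary polyadenylated mRNAs.

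The stem-loops are shown because mRNAs that end at them carry no poly(A) tail, while the labels describe capture of RNA on oligo(dT) beads. Within 200 bases downstream of the stop codon in mm9, a match to the histone stem-loop consensus was found on the sense strand of 15 of the 18 members present in the annotation. Each match is given as 16 bases, 5′ to 3′, with the 4 bases of the loop in capitals and the 6 bases of each stem arm in lower case.
Hist1h1c, chr13:23831381-23831396, plus strand: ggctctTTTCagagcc
Hist1h1d, chr13:23647656-23647671, plus strand: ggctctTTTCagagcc
Hist1h2bc, chr13:23776516-23776531, plus strand: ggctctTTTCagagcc
Hist2h2ac, chr3:96024341-96024356, minus strand: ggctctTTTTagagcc
Hist1h1t, chr13:23788394-23788409, plus strand: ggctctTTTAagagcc
Hist1h4a, chr13:23852669-23852684, minus strand: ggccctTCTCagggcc
The same 16 bases as in Hist1h1c were found in Hist1h2ae, Hist1h2ag and Hist2h3c1, so 6 of the 7 members that could be tested carried an identical stem-loop. No match was found downstream of Hist2h2bb, the remaining member tested, nor of Hist1h2bp and Hist2h2be. The transcripts used for Hist2h2bb and Hist1h2bp have 2 exons, and only the bases after their annotated stop codons were searched. A stem-loop elsewhere in these genes was not looked for. The annotated transcripts of 10 members ran more than 100 bases past the stem-loop. Those of Hist1h1c and Hist1h1d ended 839 and 3050 bases beyond it, that of Hist1h2ag ended 4 bases beyond it, and that of Hist1h2bc is spliced to an exon ending 7826 genomic bases beyond it. The polyadenylation signal AATAAA lay in the last 50 bases of the annotated transcripts of Hist1h1c, Hist1h2bc, Hist1h2ae and Hist2h3c1, but not of Hist1h1d, Hist1h2ag or Hist2h2bb. The deposited values are per gene, so reads from short and long transcripts cannot be told apart.

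The bases upstream of the 3 linker histone genes in the deposited table are shown because 2 of these genes had the largest changes among the members at 72 h of RA. They were read from the promoters of the RefSeq table and located in mm9 by exact match. Each line gives the 140 bases before the transcription start, 5′ to 3′ on the plus strand, with 3 motifs named after them in capitals.
Hist1h1c, chr13:23830536-23830675: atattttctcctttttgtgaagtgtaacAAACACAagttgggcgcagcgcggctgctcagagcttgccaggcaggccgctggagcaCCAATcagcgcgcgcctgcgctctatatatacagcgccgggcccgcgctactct
Hist1h1d, chr13:23646761-23646900: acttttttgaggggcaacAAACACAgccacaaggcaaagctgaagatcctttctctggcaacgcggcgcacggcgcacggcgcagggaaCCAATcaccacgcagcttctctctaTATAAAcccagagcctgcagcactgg
Hist1h1t, chr13:23787540-23787679: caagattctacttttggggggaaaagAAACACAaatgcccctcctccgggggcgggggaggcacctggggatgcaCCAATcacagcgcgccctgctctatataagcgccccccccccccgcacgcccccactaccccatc
All 3 held AAACACA, known from linker histone promoters as the H1 box, beginning 112 bases before the start in Hist1h1c, 122 in Hist1h1d and 114 in Hist1h1t. They also held CCAAT on the coding strand at 54, 51 and 65 bases before the start. Hist1h1d had TATAAA at 26 bases before its start.

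Promoters of 300 bases, from 250 before to 50 after the start, were found in the RefSeq table for 16 of the 19 members and were searched on both strands. AAACACA, a motif added after the values were seen, was in the promoters of 3 of 3 linker genes, of 0 of 13 core histone genes and of 7.18% of all 32851 promoters. CCAAT was in 15 of the 16 members and in 37.4% of all promoters. TATAAA was in 11 of the 16 members, against 13.6% of all promoters, and in 2 of the 6 tested members with a promoter. The octamer ATTTGCAT, known from H2B promoters, was in 6 of 13 core and 0 of 3 linker genes, against 1.74% of all promoters. The 4 motifs do not contain each other, and a match is only a description of the letters.

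Expression of the 19 members was very uneven. Hist1h1c, which encodes linker histone H1.2, had the highest mean of 2801 normalised reads over the 8 libraries, above 97.5% of all genes of the table. Hist1h2bc, which encodes an H2B, came next with a mean of 1080. The means of the H2A genes Hist1h2ae (36.3) and Hist1h2ag (33.5), the H3 gene Hist2h3c1 (35.5), the linker gene Hist1h1d (29.6) and the H2B gene Hist2h2bb (17.7) were far lower. The other 12 members had means between 1.13 and 8.47 on a scale whose lowest value is 1, and were below the minimum mean of 10 needed for a test. These 12 included both H4 genes, Hist1h4a (1.28) and Hist1h4j (4.41), so the clustered H4 genes in the table gave no test.

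Levels of different genes can be compared per length of the annotated transcript. On this scale Hist1h1c had 1796 and Hist1h2bc 1467 normalised reads per kb, over 8 libraries, so they were closer than their gene totals. Hist1h2ag had 71.1, Hist1h2ae 51.6, Hist2h3c1 12.0, Hist2h2bb 11.7 and Hist1h1d 7.75 per kb. This order depends on the annotated lengths, which were 471 bases for Hist1h2ag, 2955 for Hist2h3c1 and 3821 for Hist1h1d. Transcripts that end at the stem-loop would be shorter and give higher values for genes with long annotated ends. The labels describe sequencing of 1 tag beside a DpnII site, for which length would not matter, while the study's methods describe reads over whole transcripts.

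Clustered histone genes are near copies of each other, which bears on how reads can be assigned. Every window of 54 bases in the annotated exons was looked up on both strands of mm9. Of the windows of Hist1h1d 95.8% occurred at 1 place in the genome, and of those of Hist1h1c 92.0%. The share was 49.8% for Hist1h2bc, 58.4% for Hist1h2ae, 43.1% for Hist2h3c1 and 18.4% for Hist1h2ag, and all windows of Hist2h2bb were unique. With windows of 18 bases, the read length in the labels, the shares fell to 67.3% for Hist1h1d, 72.0% for Hist1h1c and 33.5% for Hist1h2bc. Over their whole annotated transcripts the 2 linker genes tested thus consist mostly of unique sequence. These transcripts run 839 (Hist1h1c) and 3050 (Hist1h1d) bases past the stem-loop. The share for the coding part alone, or for tags beside a DpnII site, was not measured. The values of core members with low shares are uncertain where reads could be split between copies. Hist2h3c1 also overlaps the annotated gene Hist2h2aa1.

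**Figure D1:**
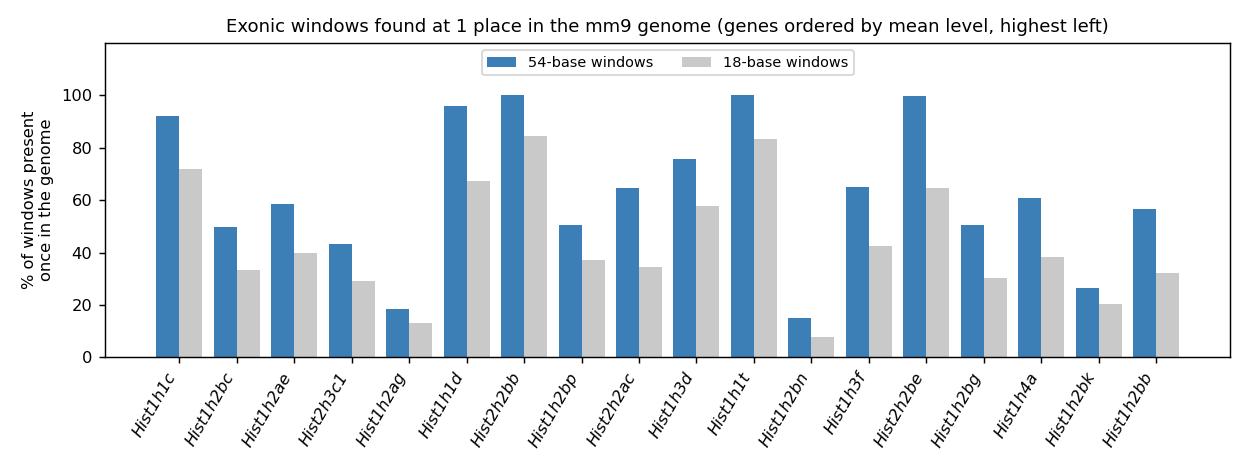
Share of exonic windows of 54 bases (blue) and 18 bases (grey) that occur at 1 place in the mm9 genome (y axis, percent) for the 18 members in the annotation, ordered by mean level. Hist1h1c and Hist1h1d reach 92.0% and 95.8% with 54 bases, and Hist1h2ag 18.4%.

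The comparison of RA at 12 h with untreated cells asked whether the clustered histone genes respond early. Genes were called at an adjusted limma p below 0.05 together with a change of 2-fold or more. None of the 7 members tested was called (0 higher and 0 lower), beside 1.11% called higher and 0.308% called lower among all genes tested. At an adjusted p below 0.05 with no fold minimum 0 of 7 passed as well, against 4.37% of all genes. At an unadjusted p below 0.05 only Hist1h1d passed, against 16.3% of all genes. The log2 changes of all 7 were negative, with a median of -0.34 beside -0.02 for all genes tested. The sign of Hist1h2ag turned without RA 12 h replicate 3 (0.12). The median was -0.17 without untreated replicate 2 and -0.10 over all 19 members with no filter.

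Hist1h1d, which encodes linker histone H1.3, was read at 19.9, 18.4 and 21.6 in the untreated libraries and at 12.3, 14.0 and 11.5 after 12 h of RA. All 3 RA libraries were below all 3 untreated ones, which held for 1 of 7 members and for 20.0% of all genes tested. Its log2 change was -0.63 ± 0.23 (SE, n = 3 and 3, unadjusted p = 0.0176, adjusted p = 0.180 by limma), so it did not pass after adjustment. Hist1h1c was read at 2075, 1876 and 2314 in untreated cells and at 2015, 2125 and 1775 at 12 h of RA, and the groups overlapped (log2 change -0.08 ± 0.11, adjusted p = 0.755). The log2 changes of the core members lay between -0.47 for Hist2h2bb and -0.10 for Hist1h2ag, with adjusted p between 0.349 and 0.877.

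At 72 h of RA 2 of the 3 linker histone genes among the members were higher than in untreated cells. Hist1h1c and Hist1h1d were called higher and no member was called lower, so 2 of 7 were called higher beside 2.15% of all genes tested, and 0 of 7 lower beside 1.52%. At an adjusted p below 0.05 with no fold minimum 3 of 7 passed, all higher, against 11.5% of all genes. Values did not overlap between the groups for 4 of 7 members, against 36.6% of all genes. The median log2 change of the 7 was 0.53 beside -0.02 for all genes tested. It was 0.13 over all 19 members with no filter, and 0.35 for the 7 without untreated replicate 3.

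The 2 libraries at 72 h had 5418 and 4814 normalised reads of Hist1h1c, and the untreated libraries 1876 to 2314. Both RA libraries were far above the untreated group, whose mean was 2088 ± 219 (SD, n = 3). The log2 change was 1.30 ± 0.12 (SE, adjusted p = 1.47e-05), or 2.45-fold. Hist1h1d stood at 69.6 in both libraries at 72 h, against a mean of 20.0 ± 1.63 (SD, n = 3) in untreated cells. Its log2 change was 1.76 ± 0.26 (SE, adjusted p = 0.000542), or 3.38-fold. The third linker gene, the testis type Hist1h1t, was at 1 to 3.88 in all 8 libraries and below the minimum mean, with means of 3.08 untreated and 1.94 at 72 h. With no filter its log2 change was -0.49 ± 0.43 (SE, adjusted p = 0.654), which did not pass.

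The most abundant core histone gene moved less. Hist1h2bc was read at 1011, 1231 and 797 in untreated cells and at 1381 and 1807 at 72 h. Both 72 h libraries exceeded the untreated ones, and the log2 change of 0.66 ± 0.18 (SE, adjusted p = 0.0281) passed the adjusted threshold but was below 2-fold. With 1 of the 8 libraries left out in turn, its log2 change ran from 0.47 to 0.86. It no longer passed the adjusted threshold without untreated replicate 1 (adjusted p = 0.0778), RA 12 h replicate 2 (0.0517) or RA 72 h replicate 2 (0.247), nor with no filter on low values (0.0632), a replicate block (0.0559) or no variance trend (0.110).

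No other core member passed the test at 72 h against untreated cells. The H2A genes had changes of opposite sign. Hist1h2ae was at 32, 49 and 27 untreated and at 46 and 56.3 at 72 h, with overlapping groups (log2 change 0.53, adjusted p = 0.324). Hist1h2ag was at 30.1, 39.9 and 41.3 untreated and at 24.1 and 27.6 at 72 h. Its groups did not overlap, yet its log2 change of -0.49 did not pass (adjusted p = 0.304). The H2B gene Hist2h2bb was at 24.3, 26.9 and 14.5 untreated and at 14.8 and 13.3 at 72 h (log2 change -0.57, adjusted p = 0.418). The H3 gene Hist2h3c1 was at 44.0, 40.4 and 32.5 untreated and at 35.9 and 39.4 at 72 h (log2 change -0.04, adjusted p = 0.948).

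**Figure D2:**
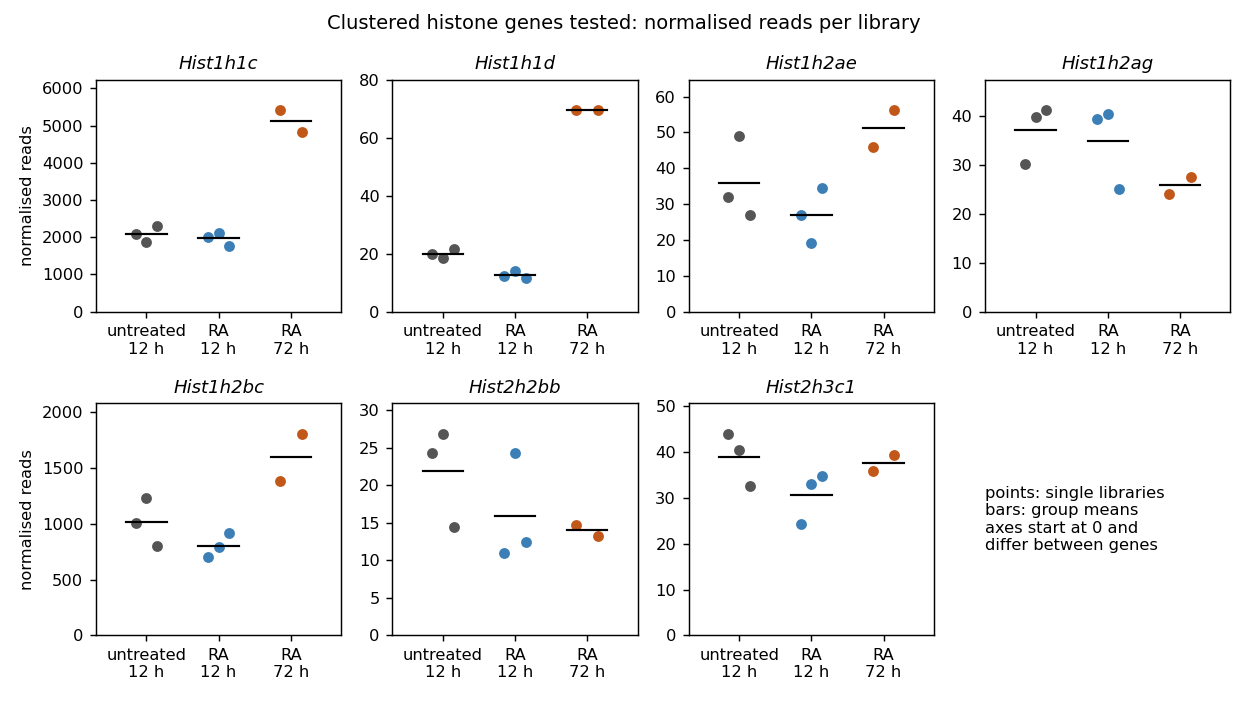
Normalised reads per library (y axes, linear and starting at 0) of the 7 clustered histone genes tested, in untreated cells at 12 h, RA at 12 h and RA at 72 h. Points are libraries and bars are group means, and both 72 h libraries of Hist1h1c (5418 and 4814) and Hist1h1d (69.6 in each) lie above all 6 others.

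Setting the late against the early RA libraries leaves the untreated ones out. Hist1h1d and Hist1h1c were again called higher and no member was called lower. Thus 2 of 7 were higher beside 0.765% of all genes tested, and 0 of 7 lower beside 0.734%. At an adjusted p below 0.05 with no fold minimum 3 of 7 passed, against 5.84% of all genes, and the values of 5 of 7 did not overlap, against 37.3%. At an unadjusted p below 0.05 4 of 7 passed, against 18.9%. The median log2 change of the 7 was 0.94, beside 0.00 for all genes tested, and 0.30 over all 19 members with no filter. These comparisons share the 72 h libraries with those against untreated cells and are not independent of them.

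The mean of Hist1h1d was 12.6 ± 1.28 (SD, n = 3) at 12 h of RA and 69.6 in both 72 h libraries, a log2 change of 2.38 ± 0.26 (SE, adjusted p = 0.000157) or 5.22-fold. That of Hist1h1c was 1972 ± 179 (SD, n = 3) at 12 h and 5116 ± 427 (SD, n = 2) at 72 h, a log2 change of 1.38 ± 0.12 (SE, adjusted p = 3.98e-05) or 2.60-fold. Hist1h2bc was at 700.3, 791 and 921 at 12 h and at 1381 and 1807 at 72 h. Its change of 0.98 ± 0.18 (SE, adjusted p = 0.00551) was 1.98-fold, just under the fold minimum. It passed that minimum without RA 12 h replicate 3 (1.08) or without RA 72 h replicate 1 (1.18). Hist1h2ae was at 26.9, 19.3 and 34.4 at 12 h and below both 72 h libraries, but its change of 0.94 did not pass (adjusted p = 0.0991). Hist2h3c1 (0.30), Hist2h2bb (-0.09) and Hist1h2ag (-0.39) had adjusted p between 0.492 and 0.935.

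**Figure D3:**
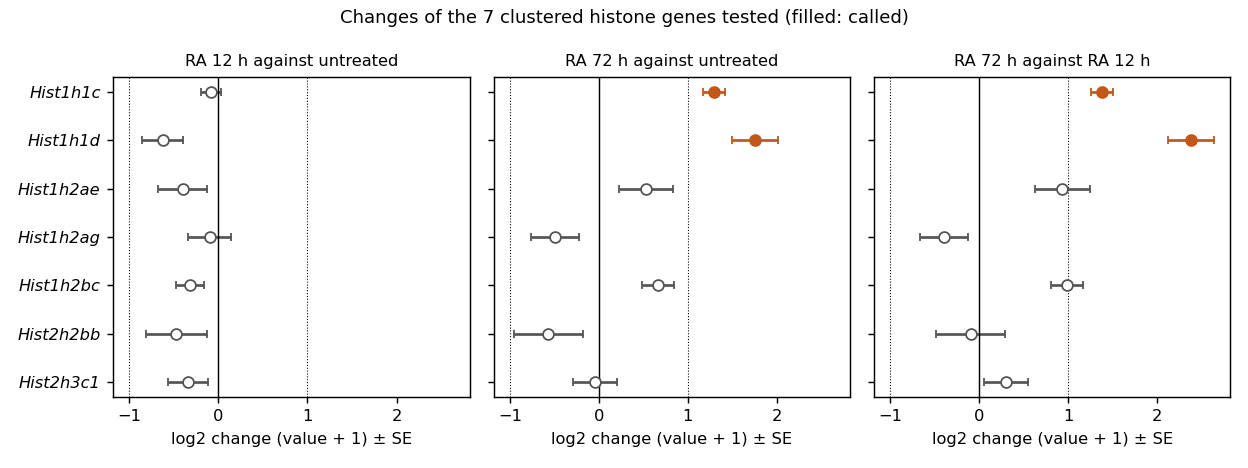
Log2 changes on the log2(value + 1) scale with their standard errors (x axes) for the 7 clustered histone genes tested in the 3 comparisons. Filled points are called genes, dotted lines mark a 2-fold change, and Hist1h1c and Hist1h1d are filled in both comparisons with 72 h.

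The linker genes also changed in proportion to each other. Hist1h1d amounted to 0.958%, 0.980% and 0.935% of the Hist1h1c reads in untreated cells and to 0.608%, 0.659% and 0.648% at 12 h of RA. At 72 h it amounted to 1.29% and 1.45%. The 3 groups did not overlap in this ratio, with 12 h lowest and 72 h highest, while Hist1h1c remained far more abundant in every library. The ratio was not tested and was not counted for other pairs of genes. It mostly follows Hist1h1d, whose own change at 12 h did not pass (adjusted p = 0.180 by limma). Summed over the 19 members, the libraries held 3265, 3324 and 3273 normalised reads untreated, 2856, 3077 and 2849 at 12 h and 7026 and 6876 at 72 h. Hist1h1c made up 56.4% to 77.1% of these sums, so the total mainly follows this gene. The 16 core genes summed to 937 to 1426 untreated, 828 to 1060 at 12 h and 1536 and 1991 at 72 h, and most of this was Hist1h2bc.

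Among the 12 members below the minimum mean, Hist1h2bp, an H2B gene, was read at 4.88, 8.00 and 5.63 untreated, 3.25, 8.38 and 8.00 at 12 h and 13.9 and 15.8 at 72 h. Both 72 h libraries were above the other 6. With no filter on low values its log2 change at 72 h against untreated cells was 1.16 ± 0.44 (SE, adjusted p = 0.196), which did not pass. Hist2h2ac (H2A) had values of 2.50 to 7.63 and Hist1h4j 1.50 to 6.75. Hist1h3d (H3) was at 1 to 5.63, Hist1h2bn at 1 to 5.63 and Hist1h3f at 1 to 3.25. Hist2h2be, Hist1h2bg, Hist1h4a, Hist1h2bk and Hist1h2bb did not exceed 3.50 in any library. These values are near the lowest value of the scale and are given as values only.

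The factors that act on histone genes and their mRNAs were examined alongside. Slbp, which encodes the protein that binds the stem-loop, was at 4273, 3570 and 4325 untreated, 4426, 4134 and 3925 at 12 h and 3761 and 2990 at 72 h. Its log2 change at 72 h was -0.27 ± 0.13 against untreated cells (adjusted p = 0.227) and -0.31 ± 0.13 against 12 h (adjusted p = 0.206). Npat, a coactivator of histone gene transcription, had log2 changes of -0.10 at 12 h and -0.14 at 72 h against untreated cells, and Casp8ap2, needed for histone mRNA processing, 0.18 and -0.04, and none passed. Of the 15 genes tested for transcription, processing and decay of histone mRNA, 0 were called in any of the 3 comparisons by limma, and at an unadjusted p below 0.05 there were 3 at 12 h, 1 at 72 h against untreated cells and 2 at 72 h against 12 h. The median of their log2 changes at 72 h against untreated cells was -0.07. Of 19 histone chaperones and import factors 0 were called in any comparison, and 3, 6 and 4 passed an unadjusted p below 0.05 in the same order. Of 13 genes for ordinary polyadenylation 0 were called in any comparison, with 2, 1 and 0 at an unadjusted p below 0.05. Their median at 72 h against untreated cells was 0.02. Of all genes tested 16.3% passed an unadjusted p below 0.05 at 12 h and 18.9% at 72 h against 12 h. For 72 h against untreated cells that share was not counted. At an adjusted p below 0.05 by limma 1 processing gene, 0 chaperones and 0 polyadenylation genes passed there, against 11.5% of all genes.

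Histone genes outside the arrays gave 7 tested genes. By limma 0 were called at 12 h and 0 at 72 h against untreated cells, where 0 and 3 passed an unadjusted p below 0.05. Of all genes tested 16.3% passed the latter at 12 h, and for 72 h against untreated cells the share was not counted. At an adjusted p below 0.05 2 of the 7 passed at 72 h against untreated cells, against 11.5% of all genes. Against 12 h 1 of the 7 was called higher, beside 0.765% of all genes tested. Cenpa, which encodes the centromeric H3 variant, was called higher at 72 h against 12 h, with 45.5, 56.1 and 49.8 normalised reads at 12 h and 116 and 104 at 72 h (log2 change 1.11 ± 0.22, adjusted p = 0.00867). It was no longer called without either of the 72 h libraries or with a pseudocount of 10. H2afx, named after its values were seen, encodes the H2A variant phosphorylated at DNA breaks and gives both stem-loop and polyadenylated mRNA. It was at 4345 to 6645 untreated and at 10829 and 9003 at 72 h, a log2 change of 0.89 ± 0.17 (adjusted p = 0.00411) that stayed below 2-fold. The median of the 7 at 72 h against untreated cells was 0.24, beside 0.53 for the 7 clustered members tested and 0.13 for all 19, and these medians were not compared by a test.

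Because clustered histone genes are best known from S phase, cell cycle genes are given beside them. Of 22 genes of G1/S and S phase 0 were called at 72 h against untreated cells, with a median log2 change of 0.02. At an unadjusted p below 0.05 4 passed, and at an adjusted p below 0.05 2 passed, both higher, against 11.5% of all genes at the adjusted threshold. At 12 h against untreated cells and at 72 h against 12 h 0 were called. An unadjusted p below 0.05 was reached by 1 and 7, against 16.3% and 18.9% of all genes. Their summed level was 33070 to 35938 untreated and 35794 and 35513 at 72 h. Of 18 genes of G2 and M phase 7 were called higher and 0 lower at 72 h against untreated cells, beside 2.15% and 1.52% of all genes. With no fold minimum 17 passed the adjusted threshold, against 11.5% of all genes, and the median log2 change was 0.92. At 12 h against untreated cells 0 of the 18 were called and 1 passed an unadjusted p below 0.05. The share of all genes called higher at 72 h against 12 h was 0.765%. Against 12 h of RA 7 of the 18 were again called higher, and this count fell to 2 without RA 12 h replicate 1 and to 3 without RA 72 h replicate 2. The summed level of the G2 and M genes was 16679 to 22705 untreated, 18625.6 to 21520 at 12 h and 34722 and 32695 at 72 h. Both the 2 linker genes and the G2 and M genes were higher at 72 h. This group has only 2 libraries, so any genes higher at 72 h share these libraries by design. A link between the linker genes and the G2 and M genes was not tested. The S phase list had 0 called genes there, with 2 higher at an adjusted p below 0.05. The study reports that RA left cell counts, BrdU incorporation and the cell cycle profile of its TAF4-null cells without significant change. The part of cell cycle stage in the linker gene change was not tested. In these bulk samples more cells in a stage and more RNA per cell cannot be told apart.

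The mitotic genes called at 72 h against untreated cells were Cdc20 (log2 change 1.60) and Bub1b (1.31), which act in the spindle checkpoint, Bub1 (1.02), the kinetochore genes Cenpe (1.12) and Cenpf (1.06), the cyclin Ccnb2 (1.12) and the spindle factor Tpx2 (1.04). Aurka (1.03), Nusap1 (1.02) and Plk1 (1.46) were called against 12 h, where Cdc20, Bub1b, Cenpe and Cenpf were called as well. The change of Hist1h1c, 1.30, was of the size of that of Bub1b, and that of Hist1h1d, 1.76, exceeded those of all 7, but these differences between genes were not tested.

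**Figure D4:**
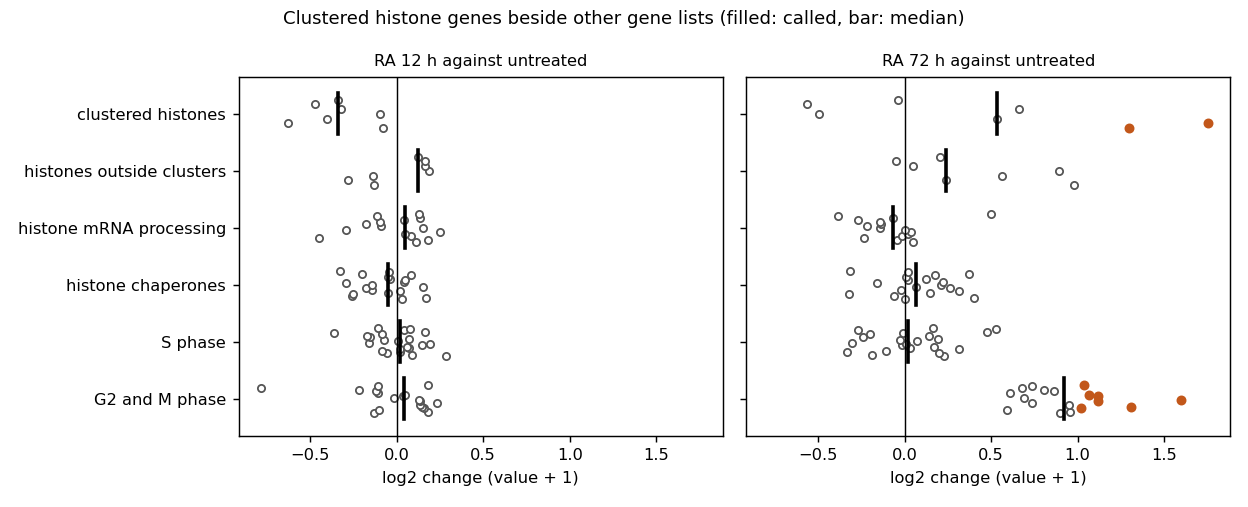
Log2 changes on the log2(value + 1) scale (x axes) at 12 h and 72 h of RA against untreated cells for the clustered histone genes and 5 other gene lists (rows). Each point is a gene, filled where called, and bars mark medians, which at 72 h are 0.53 for the clustered histones, 0.02 for S phase and 0.92 for G2 and M phase.

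The libraries also differed within their groups. The first component of the within-group variation of the tested genes outside the arrays held 50.1% of it, and set 4 libraries apart from the other 4, namely the untreated replicates 1 and 2, replicate 3 of RA at 12 h and replicate 2 of RA at 72 h. The most abundant members followed this division in opposite directions. Hist1h2bc was above its group mean in 4 of 4 libraries on the first side and 0 of 4 on the other, and Hist1h1c in 0 of 4 and 4 of 4. The share of all genes tested that do so was not counted, so this is no trait of these members. Unequal values in the 2 libraries at 72 h always lie on opposite sides of their mean. The 72 h libraries lie on different sides, which is seen in Hist1h2bc, higher in replicate 2 (1807 against 1381), and Hist1h1c, higher in replicate 1 (5418 against 4814). The sides set 72 h replicate 2 against untreated replicates 1 and 2, and 72 h replicate 1 against untreated replicate 3. Within them the change of Hist1h1c was 1.29 and 1.23, that of Hist1h1d 1.81 and 1.64 and that of Hist1h2bc 0.70 and 0.79. For these genes both 72 h libraries were above all untreated ones, so this split could not turn the sign. Within the groups the log2 values of Hist1h1d had a residual SD of 0.11 and those of Hist1h1c 0.14. It was 0.22 for Hist2h3c1, 0.26 for Hist1h2bc, 0.29 for Hist1h2ag, 0.38 for Hist1h2ae and 0.47 for Hist2h2bb. Both 72 h values of Hist1h1d were equal, so that group added no deviation to its SD. After quantile normalisation an equal value marks an equal rank and is no measure of precision.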

How the data were processed

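RNA of 8 libraries was analysed (3 untreated at 12 h, 3 RA at 12 h, 2 RA at 72 h), with groups from the labels. The authors deposited 1 table of normalised reads per Ensembl gene, a score and not counts. Its sorted values were identical in all 8 columns, as quantile normalisation gives, each column summed to 9442018.6 and the lowest value was 1. The depth of each library is therefore unknown, and no counting interval can be given. Column totals on 1 line without a gene were left out, as were the log2 ratios of group averages in the table. The labels describe DpnII tags read to 18 bases, and the study's methods describe fragmented RNA, reads of 54 bases, Tophat and Cufflinks, with mm9 as the assembly. The design text counts 7 samples and 8 were present.

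Values were taken as log2(value + 1), and the fold changes are on that scale, which understates changes of low genes. The 12673 genes with a mean of at least 10 were fitted in limma 3.58.1 (R 4.3.3) with 3 groups and a variance trend. The p-values are two-sided and adjusted by Benjamini-Hochberg over all genes tested in each of 3 contrasts, and measure the spread between libraries, which may be technical. The scripts were tested on simulated data. Spearman correlations within groups were 0.981 to 0.994. Equal replicate numbers did not pair the libraries, since the correlations of their deviations ran from -0.474 to 0.42. The members and gene lists were chosen with earlier results of these data known. Named are called members, the 10 members with the highest mean, the 5 largest changes in each direction per contrast, called genes of the other lists, Slbp, Npat and Casp8ap2. Hist1h4j was matched by identifier, which is absent from the annotation used for coordinates. Alternatives were another pseudocount, no filter, leaving out each library, a replicate block, the within-group component as a covariate, no variance trend and other call rules.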

Additional observations from a re-analysis of the deposited data

Results flagged for a closer look

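The change of Hist1h1d at 72 h differed from its change at 12 h by 2.38 on the log2 scale, and that of Hist1h1c by 1.38. Both stand out because the later and earlier changes, each taken against the same untreated libraries, differed by a test of the difference itself. That test is the limma contrast of 72 h with 12 h already given above, and not a further result. Of all genes tested 0.765% were called higher in it and 0.734% lower. For Hist1h1d the sign was negative at 12 h (-0.63, not passing) and positive at 72 h (1.76).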

How the results depend on the processing

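Hist1h1c and Hist1h1d were called at 72 h in both comparisons under every alternative that gave a test, where a lone 72 h library was assumed to vary like the other groups. Their log2 changes against untreated cells ran from 1.21 to 1.38 and from 1.41 to 1.81, and against 12 h from 1.29 to 1.46 and from 1.82 to 2.50. No called value changed sign. Changes that were not called did so for Hist1h2ag, Hist2h2bb and Hist2h3c1, for example Hist1h2ag at 12 h without RA 12 h replicate 3 (0.12), Hist2h3c1 at 72 h against untreated cells without untreated replicate 1 (0.05) and Hist2h2bb at 12 h among the libraries on the side of untreated replicate 3 (0.17). The median log2 change of the members was -0.10 at 12 h, 0.13 at 72 h against untreated cells and 0.30 against 12 h with no filter, which adds the 12 low members, and 0.75 in the last comparison with a pseudocount of 10. Leaving out 1 library gave medians of -0.48 to -0.17, 0.35 to 0.77 and 0.72 to 1.08. With untreated replicate 2 left out the median was -0.17 at 12 h, and without untreated replicate 3 it was 0.35 at 72 h.

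Leaving out 1 library, the members called numbered 0 at 12 h, 2 at 72 h against untreated cells and 2 to 3 against 12 h. The histones outside the arrays numbered 0 to 2 and 0 to 1 in the comparisons with 72 h, with Cenpa or H2afx called without untreated replicate 1, untreated replicate 3 or RA 72 h replicate 2 (2 genes), and Cenpa lost without either 72 h library. The G2 and M genes numbered 5 to 8 and 2 to 8. With a pseudocount of 10 Cenpa was lost against 12 h (0 called).

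At an adjusted p with no fold minimum, 72 h against untreated cells gave 2 histones outside the arrays, 1 processing gene, 2 S phase and 17 G2 and M genes, and 72 h against 12 h gave 3 histones outside the arrays, 2 chaperones and 18 G2 and M genes. Of all genes tested, 11.5% and 5.84% passed in these 2 comparisons. An unadjusted p below 0.05 with no fold minimum was chosen after seeing the data. Members passing it numbered 1 at 12 h and 4 at 72 h against 12 h, where 16.3% and 18.9% of all genes passed. For 72 h against untreated cells that share was not counted. The lists then gave, at 12 h, 3 processing, 3 chaperone, 1 S phase, 1 G2 and M and 2 polyadenylation genes. At 72 h against untreated cells they gave 3 histones outside the arrays, 1 processing, 6 chaperone, 4 S phase, 17 G2 and M and 1 polyadenylation gene. Against 12 h they gave 3, 2, 4, 7 and 18 without polyadenylation genes.

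With a replicate block 0, 2 and 2 members were called, with medians of -0.34, 0.54 and 0.94, and no member call changed, while Hist1h2bc lost its adjusted p below 0.05 at 72 h against untreated cells (0.0559). The numbers do not pair the libraries, and the genes called in all fell from 180 to 174, 465 to 430 and 190 to 172. The values within each side of the within-group component were added after seeing the data. The cause of these shifts was not tested. With 2 libraries at 72 h and values near the floor for 12 members, smaller changes were not detectable.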
